A study of Homo sapiens with 8 samples.

Results

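The interferon-stimulated genes described here are 45 genes that interferon is known to induce, taken by name from the 62649 genes counted in each library. All 45 were matched by Ensembl identifier, and 37 had enough reads to be tested among the 17671 genes tested. The other 8 (DDX60, IFI44, IFI44L, RSAD2, CMPK2, SAMD9L, TRIM22 and XAF1) were too low in every group. Of the 37 tested genes, 34 passed the filter on low counts in both cell lines, IFITM1 and HERC5 passed it through SW480 alone, and OASL through SW620 alone.

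Poly-A RNA of SW620 and SW480 cells, human colorectal cancer lines, was sequenced with and without caffeine, and the title of the study names the immunoproteasome. The 4 groups, with 2 libraries each, were SW620 with caffeine, SW620 control, SW480 with caffeine and SW480 control. Cells of all groups carried B8-mCherry, a fluorescent fusion of an inducible proteasome subunit, so no group holds unmodified cells. Caffeine doses of 30, 60, 100, 250 and 500 µM over 72 hours, and a long exposure of SW620 cells to 125 µM over 28 days, are listed in the labels. Which of these was used for the sequenced libraries is not given there. Per the labels there were at least 2 biological replicates, without saying whether these were cultures of separate days, so the p-values below measure the spread between these libraries only. SW620 and SW480 are 1 line each, so a difference between them is a difference between these cultures.

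Interferons are secreted proteins that cells make when they sense viral nucleic acid. Type I interferons bind the IFNAR1 and IFNAR2 receptor chains, and the kinases JAK1 and TYK2 then activate STAT proteins. A complex of STAT2, a partner STAT and IRF9 enters the nucleus and binds interferon-stimulated response elements (ISREs) in promoters, while dimers of STAT proteins bind gamma-activated sequences (GAS). The induced genes block virus entry (IFITM proteins), bind or destroy viral RNA (IFIT, OAS and ISG20 proteins), tether budding particles (BST2) and feed back on the pathway (USP18, IRF7). Many are also transcribed at a low level without added interferon.

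The promoters of the genes that moved with caffeine are shown first, because the rest of the text refers to them. Each 300-base window runs 5′ to 3′ from 250 bases before to 50 bases after an annotated start (RefSeq, GRCh38.p14). The ISRE was searched as GAAA, any 2 bases and GAAA again on both strands (TTTC, any 2 bases and TTTC on the other strand), and the GAS as TTCNNNGAA, which is its own reverse complement. ISG20, higher with caffeine in both lines, is shown with its ISRE letters in capitals (chr15:88638766-88639065, plus strand). BST2, lower with caffeine in SW620 and with a caffeine effect that differed between the lines, has a pair of overlapping ISRE matches, shown in capitals (chr19:17405581-17405880, minus strand). OAS1, lower with caffeine in both lines, had no match to the ISRE letters as searched, and there the capitals mark its GAS match (chr12:112906712-112907011, plus strand). Its window does hold gaaacgaaa, in which GAAA is repeated with a single base between, a spacing that was not searched.
ISG20: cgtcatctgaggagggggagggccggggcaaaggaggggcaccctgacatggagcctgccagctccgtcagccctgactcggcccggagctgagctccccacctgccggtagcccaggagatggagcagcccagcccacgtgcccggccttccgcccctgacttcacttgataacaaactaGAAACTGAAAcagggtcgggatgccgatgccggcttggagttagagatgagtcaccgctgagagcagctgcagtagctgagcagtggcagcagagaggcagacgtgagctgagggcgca
BST2: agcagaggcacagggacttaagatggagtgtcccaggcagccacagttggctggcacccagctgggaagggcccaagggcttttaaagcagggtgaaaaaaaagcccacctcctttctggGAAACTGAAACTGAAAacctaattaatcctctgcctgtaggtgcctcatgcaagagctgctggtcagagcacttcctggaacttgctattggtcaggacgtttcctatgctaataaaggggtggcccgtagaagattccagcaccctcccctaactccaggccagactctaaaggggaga
OAS1: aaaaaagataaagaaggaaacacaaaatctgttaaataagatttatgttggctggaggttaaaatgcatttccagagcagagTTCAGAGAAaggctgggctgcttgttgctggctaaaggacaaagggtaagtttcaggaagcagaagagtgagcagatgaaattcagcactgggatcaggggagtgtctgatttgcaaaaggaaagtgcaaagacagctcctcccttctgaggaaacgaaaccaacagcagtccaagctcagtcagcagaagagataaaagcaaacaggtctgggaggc

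Shorter stretches of 30 bases show the ISRE letters in capitals for other genes that the results turn on. IFITM1 and IFITM3, neighbours on chromosome 11, each had a pair of matches close to the start (chr11:313990-314019 and chr11:314024-314053 on the plus strand for IFITM1, chr11:320876-320905 and chr11:320893-320922 on the minus strand for IFITM3). LGALS3BP had 1 match (chr17:78979962-78979991, minus strand). The second annotated start of IFIT3 had a pair, of which the match nearer to the start is shown (chr10:89332468-89332497, plus strand, on which the match is in its TTTC form). PARP9 and DTX3L start back to back on opposite strands and share 1 match (chr3:122564322-122564351), which is shown as each gene reads it.
IFITM1, farther from the start: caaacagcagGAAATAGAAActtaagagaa
IFITM1, at the start: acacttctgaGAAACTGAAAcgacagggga
IFITM3, farther from the start: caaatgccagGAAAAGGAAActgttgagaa
IFITM3, nearer to the start: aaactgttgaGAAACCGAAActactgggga
LGALS3BP: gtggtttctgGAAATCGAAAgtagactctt
IFIT3: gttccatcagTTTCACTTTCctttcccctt
DTX3L: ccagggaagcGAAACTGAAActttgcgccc
PARP9: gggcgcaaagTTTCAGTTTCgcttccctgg

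Of the 45 genes, 37 had at least 1 RefSeq window, 50 windows in all. ISRE letters were found in 26 of these 37 genes, which is 70.3%, while 4.38% of all 27305 genes with a window had them. GAS letters were found in 13 of the 37 genes, which is 35.1%, against 9.38% of all genes, and 6 of the GAS matches overlapped an ISRE match. Counted by window, 62% of the members' windows and 3.57% of all 35116 windows held the ISRE letters. A match describes the letters in a window and is not a measurement of binding.

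**Figure D1:**
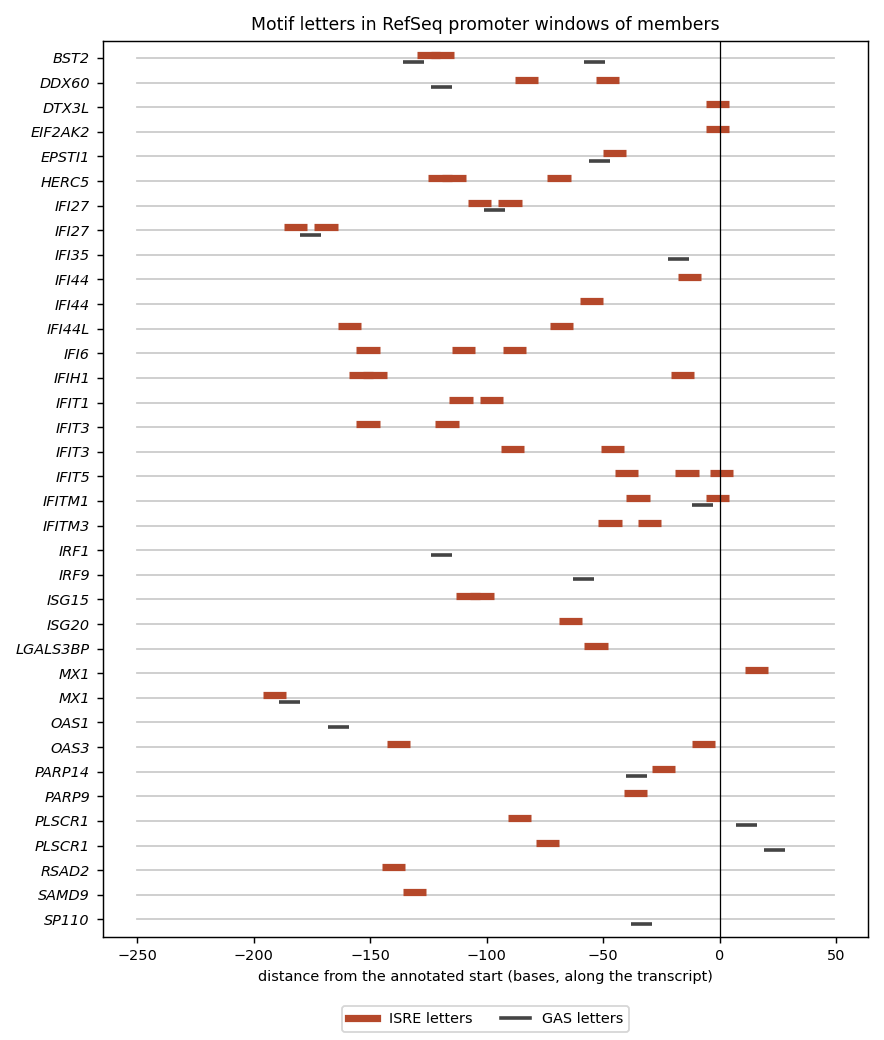
Positions of ISRE letters (red) and GAS letters (grey) in the 36 promoter windows of members that held a match, 1 line per window, from 250 bases before to 50 bases after the annotated start (0). Most ISRE matches lie before the start, as in ISG20, while those of DTX3L, EIF2AK2, IFIT5 and IFITM1 reach across it. OAS1 has a GAS match only, at the ISRE spacing searched.

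The libraries held 15760259 to 23269315 reads in genes, and a gene with no read could still have been present at up to 3 counts at 95%, that is 0.129 to 0.190 CPM, the count scaled to the size of the library, counting error only. The coefficient of variation between replicates was 7.001% in SW620 and 13.1% in SW480. SW480 caffeine replicate 2 stood apart, with a mitochondrial share of 1.63%, while the other 7 libraries had 4.38% to 6.16%, and results that rest on it are given with and without it. The epithelial marker KRT8 was abundant in all 4 groups, whereas the adhesion gene CDH1 averaged 382 CPM with caffeine and 195 CPM without in SW620, and 0.26 CPM with caffeine and 0.80 CPM without in SW480. PTPRC, which marks leukocytes, and COL3A1, which marks fibroblasts, were at or near 0 in every group, although another fibroblast gene, LUM, averaged 30.7 CPM with caffeine and 31.8 CPM without in SW620, and COL1A1 averaged 14.9 CPM with caffeine and 6.04 CPM without there. These are bulk samples, in which fewer cells that express a gene and less of its RNA per cell cannot be told apart.

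Levels are given below as CPM (counts per 1000000 reads) after TMM scaling, the edgeR adjustment for library composition. Differences are log2 fold changes ± their standard error, from 1 quasi-likelihood fit of all 8 libraries in edgeR, with p-values adjusted over the 17671 tested genes by the Benjamini-Hochberg method, and a gene was called at an adjusted p under 0.05. Log2 fold changes are caffeine over control, or SW620 control over SW480 control.

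Without caffeine, the lines held the interferon-stimulated genes at different levels, and the families differed in direction. The IFIT genes, OAS1, USP18, SAMD9, IFIH1 and LGALS3BP were higher in SW620, while the IFITM genes, IFI27, BST2, OAS2 and HERC5 were higher in SW480. Of the 37 tested genes, 29 were called, 18 higher and 11 lower in SW620, which is 78.4%, and the background was 65.6% of all tested genes (33.0% higher and 32.6% lower). Most genes of any kind thus differed between the lines. The 29 called genes include IFITM1, HERC5 and OASL, which entered the test only through their level in 1 line. The median log2 difference of the 37 genes was 0.36, against 0.03 over all tested genes, and it was 0.41 without HERC5, IFITM1 and OASL, each of which had 1 read over both control libraries of 1 line. The median depended on the filter and on single libraries (0.13 with no filter, 0.24 without SW480 control replicate 2). Between the same controls 8 of 9 epithelial marker genes were higher in SW620, with summed levels of 10777 and 10713 CPM in SW620 controls and 4624 and 6014 CPM in SW480 controls, and fibroblast markers summed to 37.8 and 40.0 CPM in SW620 controls and 6.17 and 6.13 CPM in SW480 controls. The part of these in the differences was not tested.

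All 4 IFIT genes, whose products bind foreign RNA and lie side by side on chromosome 10, were higher in the SW620 controls. IFIT2 had 7.54 and 7.62 CPM in SW620 controls and 1.57 and 1.52 CPM in SW480 controls. IFIT1 had 2.48 and 2.005 CPM in SW620 controls, against 0.242 and 0.233 CPM in SW480 controls, where 8 reads were found over both libraries. The ranges of the lines did not overlap for any of the 4, and the log2 differences were 3.20 ± 0.42 for IFIT1 (adjusted p = 4.48e-06), 2.29 ± 0.23 for IFIT2 (1.98e-07), 1.62 ± 0.21 for IFIT3 (3.29e-06) and 1.43 ± 0.16 for IFIT5 (7.09e-07).

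The IFITM genes, which encode membrane proteins that stop viruses from fusing with the cell, went the other way. IFITM3 had 8.86 and 7.87 CPM in SW620 controls and 305 and 376 CPM in SW480 controls, a log2 difference of -5.35 ± 0.23 (adjusted p = 2.64e-12). IFITM2 had 51.5 and 50.7 CPM in SW620 controls and 182 and 218 CPM in SW480 controls (-1.97 ± 0.17, adjusted p = 2.84e-08). The gap was widest for IFITM1, with 0 and 0.0501 CPM in SW620 controls against 13.8 and 13.0 CPM in SW480 controls. The SW620 value rests on 1 read, against 451 reads in SW480, and the ratio of the summed levels was 0.00188 with a 95% counting interval of 4.75e-05 to 0.0105. IFITM1 and IFITM2 share 351 exon bases on the same strand, and the family is nearly identical in sequence. Reads that fit more than 1 member of the family may therefore have gone uncounted.

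BST2, IFI27 and HERC5 were also lower in SW620. BST2 encodes tetherin, which holds budding viruses at the cell surface. It had 13.1 and 12.7 CPM in SW620 controls and 119.9 and 138 CPM in SW480 controls, which did not overlap (-3.32 ± 0.15, adjusted p = 4.02e-12). IFI27, which encodes a small hydrophobic protein, had 1.16 and 1.40 CPM in SW620 controls and 103 and 161 CPM in SW480 controls. Its log2 difference, -6.68 ± 0.26, was the most negative among members with more than 1 read in the SW620 controls (adjusted p = 8.16e-13). HERC5, the main ligase that attaches ISG15 to proteins, had 0.0506 and 0 CPM in SW620 controls and 1.33 and 1.11 CPM in SW480 controls. That is 1 read against 41, a ratio of 0.0207 with a 95% counting interval of 0.000511 to 0.122.

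Among the OAS genes, whose enzymes make the short oligoadenylates that activate RNase L, neighbours differed in direction. OAS1, OAS3 and OAS2 follow each other on the plus strand of chromosome 12, with gaps of 5129 and 5145 bases. OAS1 had 60.5 and 61.1 CPM in SW620 controls, against 13.6 and 14.4 CPM in SW480 controls (2.12 ± 0.16, adjusted p = 4.01e-09). The next gene, OAS3, had 53.0 and 61.2 CPM in SW620 controls, against 37.9 and 34.7 CPM in SW480 controls (0.65 ± 0.13, adjusted p = 0.000322). OAS2, the last of the row, was lower in SW620, with 4.30 and 5.66 CPM in SW620 controls and 28.6 and 21.9 CPM in SW480 controls (-2.34 ± 0.20, adjusted p = 1.52e-08). OASL, a relative that makes no oligoadenylate and lies elsewhere on the chromosome, had 38 reads in SW620 controls and 1 read in SW480 controls, a ratio of 32.2 with a 95% counting interval of 5.44 to 1305.

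Other members differed between the lines in both directions. USP18, the protease that removes ISG15 and restrains the receptor, had 4.66 and 4.46 CPM in SW620 controls, against 1.09 and 1.17 CPM in SW480 controls (2.01 ± 0.27, adjusted p = 5.51e-06). IFIH1, the double-stranded RNA sensor MDA5, had 27.8 and 29.1 CPM in SW620 controls, against 7.62 and 7.41 CPM in SW480 controls (1.92 ± 0.15, adjusted p = 7.32e-09). SAMD9, a restriction factor for poxviruses, had 7.03 and 7.82 CPM in SW620 controls, against 1.27 and 1.52 CPM in SW480 controls (2.41 ± 0.24, adjusted p = 1.71e-07). IRF7, the factor that amplifies type I interferon production, was lower in SW620 (-0.81 ± 0.19, adjusted p = 0.00156), as were the kinase gene EIF2AK2 (-0.76 ± 0.15, adjusted p = 0.000267) and EPSTI1 (-0.91 ± 0.30, adjusted p = 0.0147), the last without a call when SW620 control replicate 1 was left out (0.109) or by the DESeq2 Wald test (0.0539). ISG15 itself, the ubiquitin-like protein that HERC5 attaches, had 35.2 and 32.8 CPM in SW620 controls and 23.7 and 42.0 CPM in SW480 controls, whose ranges overlapped (0.05 ± 0.21, adjusted p = 0.849).

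Of the remaining called members, 8 were higher in SW620 and 1 was lower. Those higher were LGALS3BP (1.89 ± 0.12, adjusted p = 7.12e-10), ISG20 (1.74 ± 0.19, adjusted p = 3.53e-07), SP110, PLSCR1, STAT2, IRF1, SP100 and DTX3L, with log2 differences down to 0.45 for DTX3L. MX2 was lower in SW620 (-0.64 ± 0.24, adjusted p = 0.0262). DTX3L was not called without SW480 control replicate 2 (0.169, with a log2 difference of 0.27) or SW620 control replicate 2 (0.147), SP100 not without SW620 control replicate 2 (0.0578), and MX2 not without SW480 control replicate 2 (0.160), SW620 control replicate 1 (0.0687) or SW620 control replicate 2 (0.0827). ISG15, MX1, HERC6, IRF9, PARP9, PARP14, IFI6 and IFI35 were not called, with log2 differences of -0.27 to 0.36.

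Set per kilobase of annotated exon, for a rough comparison of genes with each other, the order of control levels differed between the lines. The length counts the exons of all annotated transcripts of a gene, which can exceed the transcript present. The ranks therefore depend on the annotation. LGALS3BP, a secreted glycoprotein, led in SW620 controls with 267.9 CPM per kilobase, followed by ISG15 with 36.1 and IFITM2 with 33.1. In SW480 controls IFITM3 led with 252.7 CPM per kilobase, followed by IFITM2 with 129.6 and BST2 with 115.3. The lowest of the tested genes were HERC5 (0.00531), IFITM1 (0.0232) and EPSTI1 (0.240) in SW620 controls, and OASL (0.00830), IFIT1 (0.0515) and SAMD9 (0.203) in SW480 controls, all in CPM per kilobase. Of the 8 genes below the filter, IFI44 had no read in any library, and the highest level was 0.644 CPM, of DDX60 in SW480 caffeine replicate 1.

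**Figure D2:**
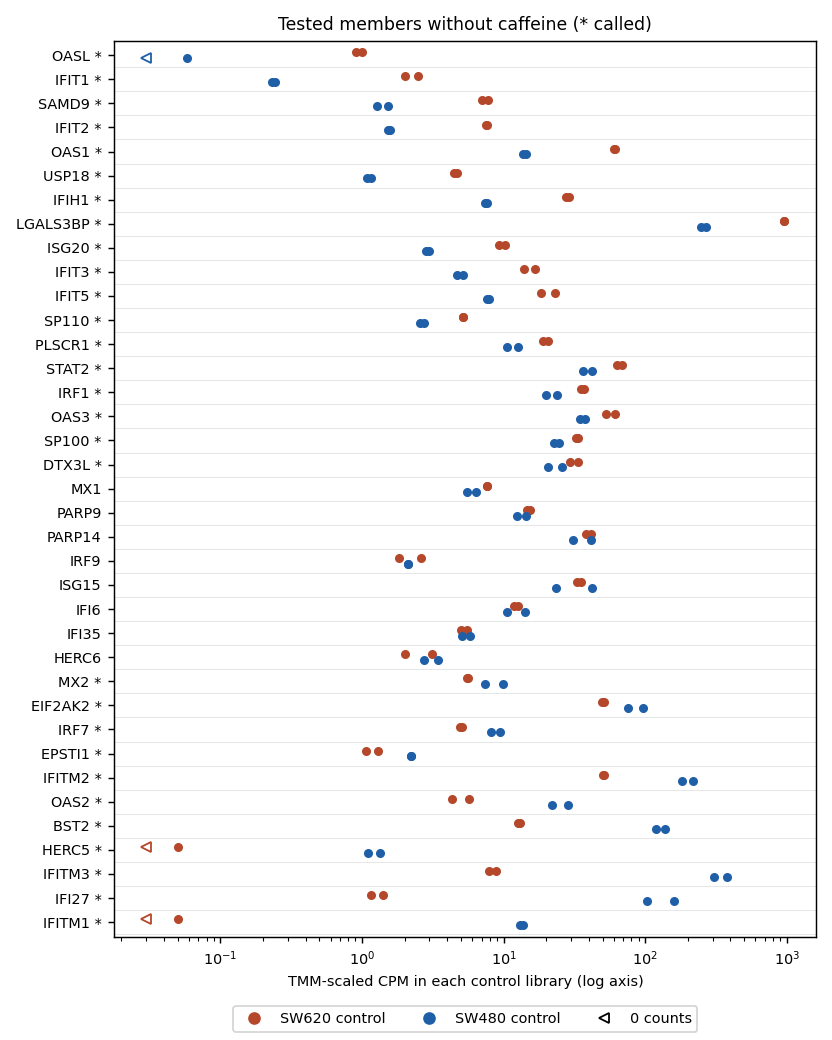
Level of each tested member in the 4 control libraries, 1 point per library in TMM-scaled CPM on a log axis, SW620 in red and SW480 in blue; open triangles mark 0 counts, drawn at the left edge, and * marks genes called between the lines. Members are ordered by log2 difference, from OASL, with 38 reads against 1, at the top, to IFITM1, with 1 read against 451, at the bottom.

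In SW620, caffeine moved interferon-stimulated genes in both directions. The RNase gene ISG20, the factor genes IRF7 and STAT2, OASL and the nuclear body gene SP100 were higher. IFIT2, IFITM3, OAS1, BST2 and the glycoprotein gene LGALS3BP were lower. Together these were 10 of the 37 tested genes, 5 higher and 5 lower. That is 27.0%, beside a background of 14.4% of all tested genes (8.10% higher and 6.25% lower). The median log2 fold change of the 37 was -0.22, against -0.01 over all tested genes, with 24 values below 0 and 13 above. Only 4 members were called without SW620 caffeine replicate 2, SW620 control replicate 1 or SW620 control replicate 2, and the median was -0.13 without SW620 control replicate 1 and -0.14 without SW620 control replicate 2.

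ISG20, a 3′ to 5′ exonuclease that degrades single-stranded RNA (chr15:88636153-88656483, plus strand), has the single ISRE match shown above and changed in both libraries by a similar amount. It had 23.8 and 22.1 CPM in SW620 caffeine libraries, against 10.3 and 9.22 CPM in SW620 control libraries. The groups lay far apart, with a log2 fold change of 1.23 ± 0.15 (adjusted p = 4.93e-05). IRF7 (chr11:612553-615999, minus strand) had 14.1 and 10.4 CPM in SW620 caffeine libraries, against 5.11 and 4.96 CPM in SW620 control libraries. Its groups did not overlap either, with a log2 fold change of 1.27 ± 0.19 (adjusted p = 0.00026). ISG20, IRF7 and BST2 were the members whose call was kept in all 15 alternative fits, which left out single libraries or changed the scaling, filter, test or model.

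OASL, SP100 and STAT2 also rose in SW620, each with a call that single libraries decided. OASL (chr12:121019111-121039242, minus strand) had 2.38 and 2.52 CPM with caffeine and 0.911 and 1.00 CPM without, that is 90 reads against 38 (1.35 ± 0.36, adjusted p = 0.0188). SP100, a protein of PML nuclear bodies (chr2:230415942-230544090, plus strand), had 55.5 and 45.3 CPM with caffeine and 32.5 and 33.8 CPM without (0.60 ± 0.14, adjusted p = 0.00762). STAT2 (chr12:56341597-56360155, minus strand) had 85.6 and 90.3 CPM with caffeine and 63.5 and 68.3 CPM without (0.42 ± 0.13, adjusted p = 0.0354). In all 3 the libraries of the groups were apart. OASL and STAT2 were not called when any 1 SW620 library was left out (adjusted p = 0.0723 to 0.159 and 0.0928 to 0.301), nor OASL by the DESeq2 Wald test (0.0939) or STAT2 with the replicate number as a block (0.0570). SP100 was not called without SW620 caffeine replicate 1 (0.102), SW620 control replicate 1 (0.100) or SW620 control replicate 2 (0.0724). SP100 also shares 544 exon bases on its strand with the pseudogene HMGB1P3.

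BST2 (chr19:17402939-17405648, minus strand) and IFITM3 (chr11:319669-327537, minus strand), which were already low in SW620, had still lower levels with caffeine, and each has a pair of ISRE matches. BST2 had 5.95 and 5.54 CPM in SW620 caffeine libraries, against 13.1 and 12.7 CPM in SW620 control libraries (-1.17 ± 0.16, adjusted p = 0.000146). IFITM3 had 4.05 and 2.97 CPM in SW620 caffeine libraries, against 8.86 and 7.87 CPM in SW620 control libraries (-1.26 ± 0.26, adjusted p = 0.00358). All caffeine libraries lay below all control libraries for both genes, and IFITM3 had an adjusted p of 0.0591 without SW620 caffeine replicate 2. IFITM2, the neighbour of IFITM1, had 49.5 and 38.5 CPM with caffeine and 51.5 and 50.7 CPM without, and was not called (-0.22 ± 0.17, adjusted p = 0.444). IFITM1 had 6 reads with caffeine and 1 without, a ratio of 6.50 with a 95% counting interval of 0.788 to 299.

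The other genes that fell in SW620 were IFIT2, OAS1 and LGALS3BP. IFIT2 (chr10:89283694-89309276, plus strand) had 4.17 and 3.98 CPM in SW620 caffeine libraries, against 7.54 and 7.62 CPM in SW620 control libraries (-0.90 ± 0.20, adjusted p = 0.00654). OAS1 (chr12:112906777-112933222, plus strand) had 45.1 and 38.1 CPM with caffeine and 60.5 and 61.1 CPM without (-0.55 ± 0.15, adjusted p = 0.0196). LGALS3BP (chr17:78971238-78980109, minus strand) had 688 and 676 CPM with caffeine and 964 and 957 CPM without (-0.49 ± 0.12, adjusted p = 0.0116). The groups were separate for each. Without SW620 caffeine replicate 2, SW620 control replicate 1 or SW620 control replicate 2 the adjusted p was 0.0702, 0.0733 and 0.0818 for IFIT2 and 0.199, 0.127 and 0.139 for OAS1, and LGALS3BP was not called without any 1 of the SW620 libraries (0.0742 to 0.133). IFIT3 missed the threshold (-0.59 ± 0.19, adjusted p = 0.0505), with 12.4 and 8.05 CPM in caffeine libraries and 13.9 and 16.6 CPM in controls.

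Epithelial marker genes also moved with caffeine in SW620, 3 higher and 2 lower of 9, beside 8.10% higher and 6.25% lower of all tested genes. Their summed level was 14347 and 12940 CPM in SW620 caffeine libraries against 10777 and 10713 CPM in SW620 control libraries. Leukocyte markers summed to 1.85 to 4.49 CPM over all libraries. Endothelial markers summed to 15.2 and 15.6 CPM with caffeine and 9.67 and 9.57 CPM without in SW620, of which PECAM1 made up most. Fibroblast markers summed to 48.6 and 45.8 CPM with caffeine and 37.8 and 40.0 CPM without in SW620, and of these COL1A1 was called (1.30 ± 0.19, adjusted p = 0.000193). The part of any of these in the SW620 results was not tested.

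**Figure D3:**
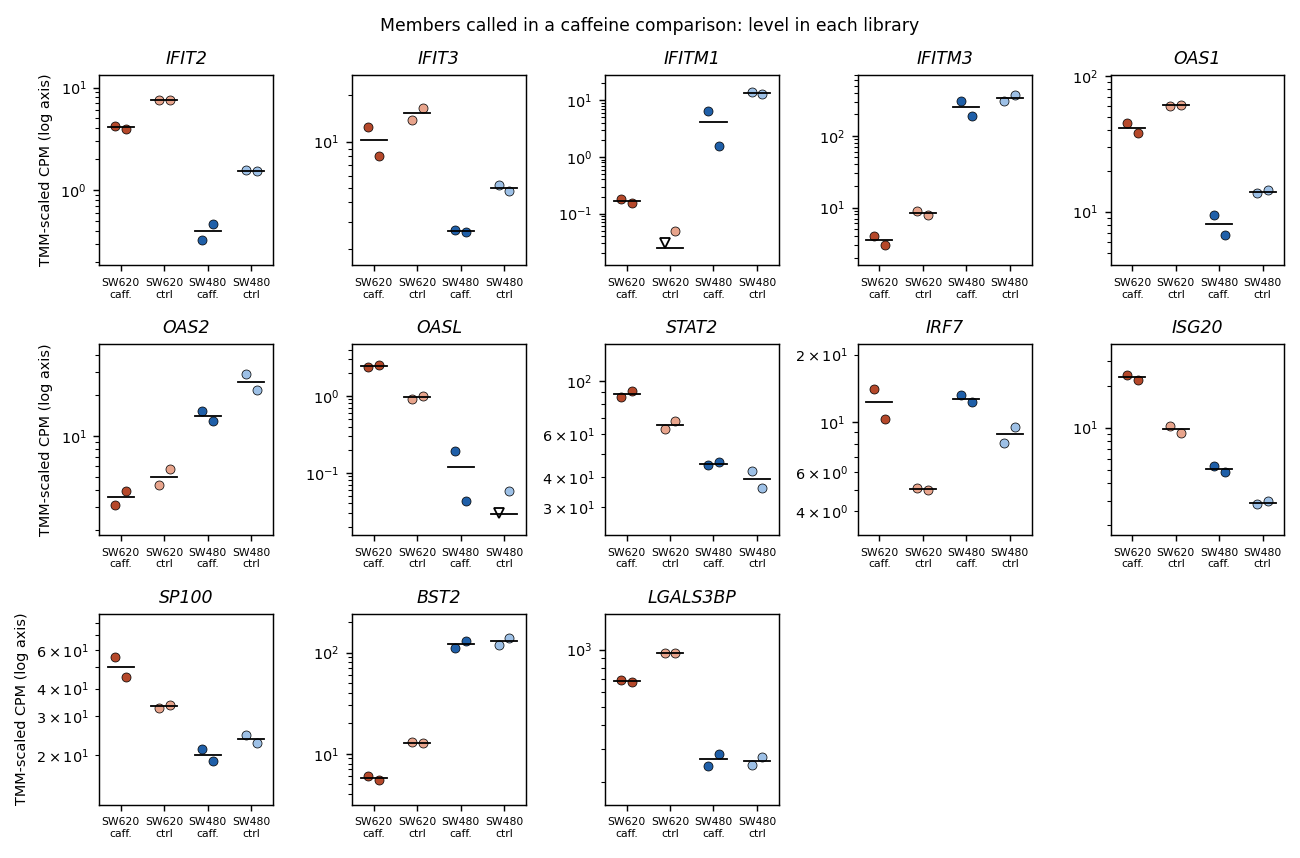
Level of the 13 members called with caffeine in at least 1 line, 1 point per library in TMM-scaled CPM on a log axis, with bars at group means; caffeine groups are dark and controls pale, SW620 red and SW480 blue, and open triangles mark 0 counts, drawn near the foot of the axis. ISG20 is higher with caffeine in both lines, while the BST2 points with and without caffeine overlap in SW480, with 110.1 and 131 CPM against 119.9 and 138 CPM.

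In SW480, caffeine lowered IFIT2, IFIT3, IFITM1, OAS1 and OAS2 and raised ISG20, all of them antiviral effectors. These were 6 of the 37 tested genes, 1 higher and 5 lower, which is 16.2%, and 3.60% of all tested genes were called (1.67% higher and 1.93% lower). The median log2 fold change of the 37 was -0.13, against 0 over all tested genes, and it was -0.068 when SW480 control replicate 2 was left out. The calls of all 6 rested on SW480 caffeine replicate 2, the library with few mitochondrial reads. Several of the 6 rested also on SW480 control replicate 1, SW620 control replicate 1 or SW620 control replicate 2. The log2 fold changes without SW480 caffeine replicate 2 had the same signs, and taking the mitochondrial genes out of all libraries left 6 genes called.

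IFIT2 changed most among the called genes in SW480, with 0.322 and 0.468 CPM in SW480 caffeine libraries and 1.57 and 1.52 CPM in SW480 control libraries. The groups were apart, although the level with caffeine rests on 16 reads, against 52 without (-1.90 ± 0.36, adjusted p = 0.0112, and 0.0946 without SW480 caffeine replicate 2). IFIT3 (chr10:89327894-89340971, plus strand) had 2.64 and 2.55 CPM with caffeine and 5.20 and 4.73 CPM without (-0.94 ± 0.25, adjusted p = 0.0479). IFIT3 was close to the threshold, and leaving out 1 library gave adjusted p of 0.0775 (SW480 caffeine replicate 1), 0.336 (SW480 caffeine replicate 2), 0.159 (SW480 control replicate 1), 0.0537 (SW620 control replicate 1) and 0.0552 (SW620 control replicate 2), and limma-voom gave 0.0970. IFIT1 was not called, and stood at 0.579 and 0.639 CPM with caffeine and 0.242 and 0.233 CPM without (1.34 ± 0.53, adjusted p = 0.171), from 24 reads against 8.

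OAS1 had 9.53 and 6.73 CPM in SW480 caffeine libraries, against 13.6 and 14.4 CPM in SW480 control libraries (-0.80 ± 0.17, adjusted p = 0.0192). OAS2 (chr12:112978395-113011723, plus strand) had 15.2 and 12.8 CPM in SW480 caffeine libraries, against 28.6 and 21.9 CPM in SW480 control libraries (-0.86 ± 0.18, adjusted p = 0.0161). Both OAS genes were lower in each caffeine library than in each control library. With SW480 caffeine replicate 2 left out, adjusted p came to 0.256 for OAS1 and 0.199 for OAS2, and leaving out SW480 control replicate 1 gave 0.111 for OAS2. OAS3, between them, was not called (-0.23 ± 0.13, adjusted p = 0.362).

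IFITM1 (chr11:313506-315272, plus strand) had 6.56 and 1.58 CPM in SW480 caffeine libraries, against 13.8 and 13.0 CPM in SW480 control libraries. Both caffeine libraries were lower, but they differed from each other by more than any other called gene's did in SW480 (-1.81 ± 0.41, adjusted p = 0.0355). The log2 fold change was -1.05 without SW480 caffeine replicate 2 and -3.08 without SW480 caffeine replicate 1. Among the fits that left out 1 library, the call was kept only when that library was SW480 caffeine replicate 1. It was also lost in an edgeR fit of SW480 alone (adjusted p = 0.471). The other alternatives, such as limma-voom and the DESeq2 Wald test, kept it. IFITM2 and IFITM3 had log2 fold changes of -0.40 ± 0.16 (adjusted p = 0.186) and -0.45 ± 0.18 (adjusted p = 0.185). In IFITM3 the replicates of SW480 differed in the same way, with 311 and 188 CPM with caffeine and 305 and 376 CPM without, so that the groups overlapped.

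ISG20 had 5.28 and 4.85 CPM in SW480 caffeine libraries, against 2.84 and 2.98 CPM in SW480 control libraries, with no overlap (0.79 ± 0.20, adjusted p = 0.0371). Its log2 fold change stayed between 0.74 and 0.84 when single libraries were left out. The adjusted p was over 0.05 without any 1 SW480 library or either SW620 control library (0.0570 to 0.186, the highest without SW480 caffeine replicate 2), by limma-voom (0.0772) and in a fit of SW480 alone (0.0963). IRF7 had 13.2 and 12.3 CPM in SW480 caffeine libraries and 8.11 and 9.51 CPM in SW480 control libraries and was not called (0.53 ± 0.18, adjusted p = 0.118).

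ISG20, IFIT2 and OAS1 were called in both lines, ISG20 higher and the other two lower. They are 30% of the 10 genes called in SW620 and 50% of the 6 called in SW480. Over all tested genes, 166 were called in both lines, 6.54% of those called in SW620 and 26.1% of those called in SW480, and 64 of them moved in opposite directions. The lines have separate control libraries. None of the 3 had a caffeine effect called as different between the lines (adjusted p = 0.321 for ISG20, 0.167 for IFIT2 and 0.548 for OAS1), which does not show that the effects were equal.

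The difference of the caffeine effects, SW620 minus SW480, was called for 2 of the 37 genes, BST2 and SP100, which is 5.41%, against 6.71% of all tested genes (4.24% higher and 2.47% lower), so the share was near the background. It was 4 genes without SW480 caffeine replicate 1 and with no filter, and 1 without SW620 caffeine replicate 1, SW620 control replicate 1 or SW620 control replicate 2. BST2 had 5.95 and 5.54 CPM with caffeine and 13.1 and 12.7 CPM without in SW620, and 110.1 and 131 CPM with caffeine and 119.9 and 138 CPM without in SW480. The fall in SW620 thus had no counterpart of that size in SW480, where the log2 fold change was -0.10 ± 0.13 (adjusted p = 0.728), and the difference was -1.07 ± 0.21 (adjusted p = 0.0055). It was called in all 14 alternative fits. SP100 in SW480 had 21.2 and 18.8 CPM with caffeine and 24.6 and 22.6 CPM without, below control, whereas in SW620 both caffeine libraries lay above control (difference 0.85 ± 0.20, adjusted p = 0.0172). The SP100 difference was not called without SW480 caffeine replicate 2 (0.0645), SW620 caffeine replicate 1 (0.0732), SW620 control replicate 1 (0.0911) or SW620 control replicate 2 (0.0699). For IFITM3, IRF7 and LGALS3BP, which were called in SW620 and not in SW480, the difference had adjusted p of 0.136, 0.0962 and 0.0778.

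**Figure D4:**
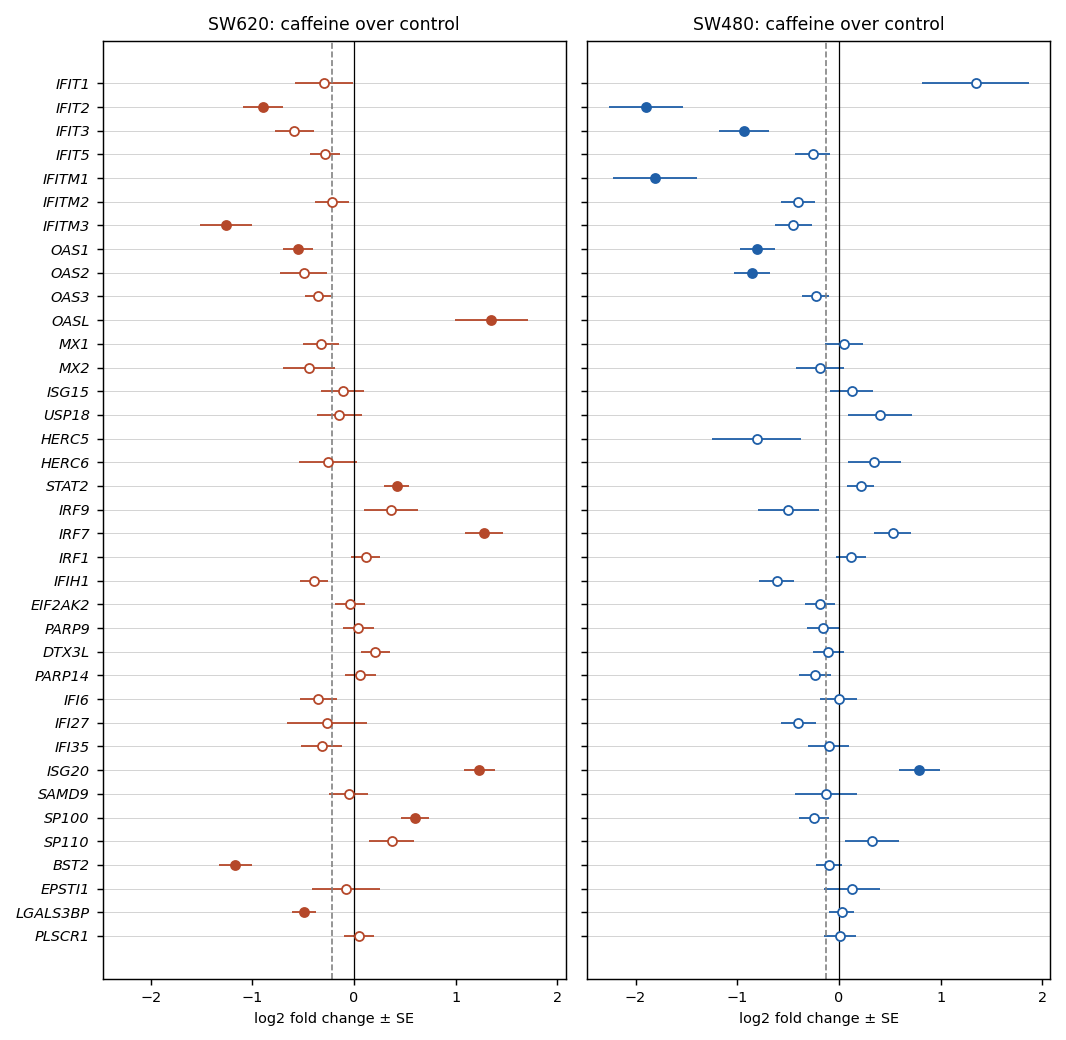
Log2 fold change with caffeine ± standard error for the tested members in SW620 (left) and SW480 (right); filled points were called and the dashed line is the median of the members in that line, -0.22 in SW620 and -0.13 in SW480. Genes with at most 1 read in the controls of a line are not drawn there. ISG20 lies right of 0 in both panels, and BST2 was called, left of 0, in SW620 alone.

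Many members were not called in either line. MX1 and MX2 (dynamin-like GTPases that block virus replication), ISG15, USP18, HERC5 and HERC6 of the ISG15 system, IRF1, IRF9, IFIH1, EIF2AK2, PARP9, DTX3L, PARP14, IFI6, IFI27, IFI35 and PLSCR1 were among them. IFIH1 had log2 fold changes of -0.39 ± 0.14 in SW620 (adjusted p = 0.0652) and -0.61 ± 0.17 in SW480 (adjusted p = 0.0572), with every caffeine library below every control library of its line. PARP9 and DTX3L, which share the promoter window shown above and form a complex that modifies histones, stood at 0.04 ± 0.15 and 0.21 ± 0.14 in SW620 and at -0.16 ± 0.16 and -0.11 ± 0.15 in SW480. The summed level of all 45 genes was 1355 and 1325 CPM in SW620 with caffeine and 1620 and 1635 CPM without, and 1380 and 1219 CPM in SW480 with caffeine and 1431 and 1606 CPM without. Without LGALS3BP, IFITM3 and IFITM2 it was 613 and 607 CPM with caffeine against 596 and 620 CPM in SW620, which overlapped, and 644 and 625 CPM with caffeine against 696 and 742 CPM in SW480.

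Set beside the promoter windows, the called genes were mixed. Of the genes with a window, ISRE letters were present in ISG20 and absent in STAT2 and SP100 among those higher with caffeine in SW620. Among those lower in SW620 they were present in IFITM3, BST2 and LGALS3BP and absent in OAS1 at the spacing searched. Of the 23 tested genes with a window that were not called in SW620, 18 had them. IFIT2, IRF7, OASL, OAS2, IFITM2, MX2, USP18 and TRIM22 had no window in the table used.

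The genes upstream of this response were described from a second list of 50 pathway genes, of which 36 were tested. Transcripts of the 7 ligand genes listed were almost absent, and the interferon alpha genes were not on the list. IFNE had 0 to 3 reads per library. IFNK, IFNG, IFNL1, IFNL2 and IFNL3 had 0 counts in all 8 libraries, which at these depths allows up to 0.129 to 0.190 CPM per library, and IFNB1 had 1 read, in SW620 control replicate 1. The receptor genes IFNAR1 and IFNAR2 were transcribed in all libraries and called in no comparison, and the other 4 of 6 receptor genes were called between the controls, IFNGR1, IFNGR2 and IL10RB higher in SW620 and IFNLR1 lower. IFNAR1 had 71.9 and 69.7 CPM in SW620 with caffeine, 69.7 and 73.7 CPM in SW620 controls, 69.7 and 57.1 CPM in SW480 with caffeine and 67.7 and 59.8 CPM in SW480 controls. Between the controls, 23 of the 36 pathway genes were called, 12 higher and 11 lower in SW620, which is 63.9% and near the background of 65.6% of all tested genes. GBP2, a guanylate-binding protein, was the most positive, with 2.93 and 3.36 CPM in SW620 controls, against 0.121 and 0.175 CPM in SW480 controls, that is 125 reads against 5 (4.34 ± 0.43, adjusted p = 1.55e-07). GBP3 of the same family was the most negative called one (-1.80 ± 0.58, adjusted p = 0.0112). Its log2 difference was -1.10 without SW620 control replicate 1 (adjusted p = 0.155) and -3.33 without SW620 control replicate 2 (adjusted p = 0.00346).

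With caffeine in SW620, 7 of the 36 tested pathway genes were called, 4 higher and 3 lower, which is 19.4% beside a background of 14.4% of all tested genes (8.10% higher and 6.25% lower), and in SW480 none was called by edgeR, limma-voom or DESeq2, with 8 at an unadjusted p under 0.05 (3 were called when SW480 caffeine replicate 1 was left out, and 1 when SW480 control replicate 2 was). JAK1, the kinase shared by all interferon receptors, had 209 and 241 CPM in SW620 caffeine libraries, against 157 and 160.0 CPM in SW620 control libraries (0.50 ± 0.13, adjusted p = 0.013). STAT3 (0.45 ± 0.13, adjusted p = 0.0344), the kinase gene IKBKE (0.51 ± 0.15, adjusted p = 0.0302) and the Fc receptor and ubiquitin ligase gene TRIM21 (0.55 ± 0.15, adjusted p = 0.0246) were the others that rose. UBE2L6, the enzyme that carries ISG15 to its ligases, fell (-0.78 ± 0.24, adjusted p = 0.0364), with NLRC5, the activator of MHC class I genes (-0.44 ± 0.14, adjusted p = 0.0442), and SHISA5 (-0.42 ± 0.13, adjusted p = 0.0356). These 7 calls depended on single libraries: 2 genes were called without SW620 caffeine replicate 1, 1 without SW620 caffeine replicate 2 and 0 without either SW620 control library, and NLRC5 and SHISA5 were not called with the replicate number as a block (0.0605 and 0.0570). UBE2L6 was not called by the DESeq2 Wald test (0.0606) or limma-voom (0.0624), NLRC5 not by the DESeq2 Wald test (0.0685) or with no filter (0.0691), and SHISA5 not with no filter (0.0528). The log2 fold change of STAT3 was 0.27 without SW620 caffeine replicate 2.

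The caffeine effect differed between the lines for JAK1 and SOCS3, which are 5.56% of the 36 pathway genes, near the background of 6.71% of all tested genes. SOCS3, a feedback inhibitor of JAK kinases, had 3.21 and 3.27 CPM with caffeine and 1.97 and 2.21 CPM without in SW620. In SW480 it had 4.63 and 5.15 CPM with caffeine and 7.26 and 7.06 CPM without. The groups were apart in both lines and in opposite directions, with log2 fold changes of 0.63 ± 0.23 in SW620 (adjusted p = 0.0789) and -0.54 ± 0.19 in SW480 (adjusted p = 0.132), neither called, and a difference of 1.18 ± 0.30 (adjusted p = 0.0263). JAK1 had 108 and 104 CPM with caffeine and 130.2 and 106 CPM without in SW480, and its difference was 0.66 ± 0.18 (adjusted p = 0.0359). Neither difference was called without SW480 control replicate 1 (0.0513 for SOCS3, 0.0932 for JAK1), without SW620 caffeine replicate 2 (0.0889 and 0.163), or without SW620 control replicate 1 (0.143 and 0.152) or 2 (0.0909 and 0.137), and that of SOCS3 not without SW620 caffeine replicate 1 (0.0620) and that of JAK1 not without SW480 caffeine replicate 2 (0.0883).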

How the data were processed

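Per the labels, RNA with an integrity number of at least 8 was made into directional poly-A libraries (NEBNext Ultra II) and read as 75 bp single ends on a NextSeq 500. The authors deposited 1 file per library of raw read counts per Ensembl gene. The submitters' processing notes name Trim Galore, STAR 2.7.3a, featureCounts 2.0.5 and hg38; the strand setting and annotation release are not given in the sources used here. Reads assigned to several genes (7.36% to 8.37%) or mapped with low quality (13.3% to 17.5%) were not counted, which lowers genes with near copies. Each file also held 12 assignment totals, which were left out.

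Samples were grouped by line and treatment from the labels. Identifiers were matched to symbols (62625 of 62649) and to GENCODE 29 (58225), which gave GRCh38 coordinates, exon overlaps and exon lengths. Of the 45 members 18 share exon bases with another gene, 6 on the same strand and 14 on the opposite strand, whose reads cannot be told apart without the strand setting. Promoter windows came from RefSeq, GRCh38.p14.

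The main test was edgeR 4.0.16 in R 4.3.3 (filterByExpr, TMM, robust quasi-likelihood F test, all 8 libraries, 4 group means), adjusted over 17671 genes. The fit was also run on simulated counts with the same spread for all genes. There it missed part of the changes put in, more often the smaller ones, so a gene not called may still have changed. Alternatives were DESeq2 size factors, the DESeq2 1.42.0 Wald test, limma 3.58.1 voom, no filter on low counts, a replicate block, separate fits, no mitochondrial genes and each library left out. The text names members called with caffeine or in the difference, called members over 1 log2 unit from the members' median, the 6 largest called differences each way between controls, the 3 highest and 3 lowest tested per length in each line, pathway genes called with caffeine and the largest pathway differences between controls; further members are named after their values were seen. The members, lists and rule were chosen with earlier results of these data known. Where a group had 1 to 3 reads, the ratio has an exact counting interval in place of a fitted value. Replicate numbers did not pair libraries (correlation of same-numbered deviations 0.0134 in SW620 and 0.0265 in SW480), and no replicates were identical.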

Additional observations from a re-analysis of the deposited data

Results flagged for a closer look

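Among the interferon-stimulated genes, the caffeine effect differed between the lines, by the edgeR test of the difference itself, for SP100 and BST2. The difference, SW620 minus SW480, was 0.85 on the log2 scale for SP100 and -1.07 for BST2 (adjusted p = 0.0172 and 0.0055). These are 5.41% of the tested members, near the 6.71% of all tested genes, and the SP100 call depended on single libraries. In SW620 both caffeine libraries were above both controls for SP100 and below them for BST2, whereas in SW480 both SP100 caffeine libraries were below both controls and those of BST2 overlapped the controls.

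Among the pathway genes the difference was 0.66 for JAK1 and 1.18 for SOCS3 (adjusted p = 0.0359 and 0.0263 by the same edgeR test). They are 5.56% of the tested pathway genes, again near the 6.71% of all tested genes, and both calls depended on single libraries. The SOCS3 caffeine libraries were above both controls in SW620 and below both controls in SW480. The JAK1 caffeine libraries were above both controls in SW620 and had 108 and 104 CPM in SW480, against 130.2 and 106 CPM in the controls. The cause of these differences was not tested.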

How the results depend on the processing

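Without a filter on low counts the members' median was 0.13 between the controls and -0.17 with caffeine in SW620, and 4 members were called in the difference of caffeine effects. The median between the controls was 0.34 with DESeq2 size factors and 0.34 with the DESeq2 Wald test. A separate fit of SW620 called 13 members and 13 pathway genes, and a separate fit of SW480 called 4 members. With single libraries left out, where the lone library of a group is assumed to vary like the others, the members' median ranged over 0.24 to 0.50 between the controls, -0.23 to -0.13 with caffeine in SW620 and -0.028 to 0.19 in the difference. Members called ranged over 4 to 11 in SW620, 0 to 7 in SW480 and 1 to 4 in the difference, and pathway genes called over 0 to 9, 0 to 3 and 0 to 4. The number of members called between the controls stayed at 26 to 30 under all alternatives. With the replicate number as a block, 10 members were called in SW620, 6 in SW480, 2 in the difference and 29 between the controls, and the calls of STAT2, NLRC5 and SHISA5 in SW620 were lost (0.0570, 0.0605 and 0.0570). Among the called genes that the naming rule covers, no value changed sign under these alternatives. The cause of these shifts was not tested. With 2 libraries per group, genes near the threshold moved across it, and the low counts of IFITM1, HERC5 and OASL limit their folds.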
